A study of Mus musculus with 68 samples.

Results

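The 46 genes examined here encode the enzymes and carriers that bring glucose and pyruvate into the cell, break glucose down to pyruvate and lactate, and burn pyruvate in the tricarboxylic acid (TCA) cycle. They were chosen by name, as a list, and all 46 were found among the 24421 reference gene symbols of every deposited table. RNA was sequenced by Smart-seq2, which copies polyadenylated RNA from few cells, here a small pool of blastomeres per library. In the first experiment, oocytes of BDF1 (B6D2F1) females were enucleated, injected with the nucleus of a BDF1 cumulus cell (CC) and activated with SrCl2 and cytochalasin B, and the resulting somatic cell nuclear transfer (SCNT) embryos were collected at 6 and 14 hours post activation (hpa), as early (E2C) and late (L2C) 2-cell embryos, at 4 cells (4C), 8 cells (8C) and the morula, and as blastocysts divided by micromanipulation into ICM, the inner cell mass, and TE, the trophectoderm. There were 3 libraries of CCs, 5 at 4C and 6 of each other group. In the second experiment, fertilized C57BL/6j zygotes received a morpholino (MO), an antisense oligonucleotide, against Max or Mcrs1 or a random control MO, and the ICM and TE of the blastocysts gave 2 libraries per group. The control libraries are labelled as controls and as untreated, and were taken as control MO from the treatment protocol. In this experiment the control MO was given at a higher concentration than either targeting MO, according to the study, so that dose and target cannot be told apart. The study calls the SCNT libraries independent samples and the MO libraries biological replicates, while the labels name no culture or animal for any of them.

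Glycolysis splits glucose into pyruvate, which lactate dehydrogenase interconverts with lactate, and which the mitochondrial pyruvate carrier and the pyruvate dehydrogenase complex feed to the TCA cycle. Cleavage-stage mouse embryos are known to depend on pyruvate and lactate and to take up glucose strongly only from the morula stage onwards. MAX is the DNA-binding partner of the MYC proteins, which are known regulators of glycolytic genes, and MCRS1 is a subunit of chromatin complexes.

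Values are TPM, the share of a library's transcripts after correction for transcript length, and fold changes are differences of log2(TPM + 1), which understate the change of low genes. A gene is said to have risen or fallen, or to have passed the test, where it changed by 2-fold or more with an adjusted p from limma below 0.05. Loci assembled from the reads made up the TPM total of each library by themselves. The reference genes came beside them and summed to 30.4% to 90.9% of that total in the SCNT libraries. The lowest values were at L2C, where the range was 30.4% to 61.8%. The 46 genes together held between 1497 and 12331 TPM per SCNT library, 10651 to 13131 TPM in CCs and 10828 to 13994 TPM in the MO libraries. Replicates 1 to 3 and 4 to 6 of the SCNT groups often sat apart, and values within each set are given where they matter. No read counts were given, so an exact 0 can be a missed gene. Of the genes, 12 share over 5% of their 100-base stretches with another gene, from 7.40% for Gpi1 to 78.0% for Gapdh, and with Pgk1 at 67.0%, Eno1 at 59.0%, Pgam1 at 39.7% and Mpc1 at 19.7% their levels are uncertain. TPM is a share of a library, so fewer cells of a type and less RNA per cell cannot be told apart.

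CCs and SCNT embryos at 6 hpa, which carry the RNA of the oocyte, differed over nearly the whole of glycolysis. Of the 43 genes tested, 28 were higher in CCs and 1 was lower, while 35.6% of all 12084 genes tested were higher and 25.8% lower, 61.4% together. With quantile normalization the counts were 25 and 5. The median change of the 43 genes was 2.11 on the log2 scale against 0.28 over all genes. Pfkm, Pdk4 and Pcx did not pass the filter on low values. Among the genes that passed, the one with the largest rise in CCs and the only one lower were the pair of lactate dehydrogenase subunits. Ldha, the muscle-type subunit, was at 452, 717 and 790 TPM in the 3 CC libraries and at 0.531 to 1.25 TPM at 6 hpa, with a median of 0.722. Ldhb, the heart-type subunit, was at 142, 154 and 161 TPM in CCs and at 3248 to 7019 TPM at 6 hpa, with a median of 5572. Neither gene's ranges overlapped, and the changes from 6 hpa to CCs were 8.51 ± 0.80 (SE) for Ldha and -5.03 ± 0.56 for Ldhb on the log2 scale, with limma adjusted p of 9.7e-14 and 3.0e-11. Ldhb made up 15.3% to 25.5% of the summed TPM of both subunits in CCs and at least 99.9% at 6 and 14 hpa.

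Among the other genes higher in CCs were Hk2, the hexokinase of insulin-sensitive tissues, at 51.1, 61.5 and 76.7 TPM against 1.30 to 4.06 at 6 hpa, and Aldoa, an aldolase, at 690, 1277 and 1372 TPM against 1.12 to 16.2. Both were higher in every CC library than in every embryo library at 6 hpa. The cytosolic isocitrate dehydrogenase Idh1 was at 2754, 3170 and 3196 TPM in CCs and at 42.5 to 78.1 TPM at 6 hpa, and its mitochondrial counterpart Idh2 was at 25.9, 38.5 and 49.7 TPM in CCs and listed at or under 0.0873 TPM at 6 hpa. Citrate synthase (Cs), which opens the TCA cycle, was at 31.1, 37.8 and 48.9 TPM in CCs and at 54.4 to 74.7 TPM at 6 hpa. Of the 60 other genes of these pathways, 39 were tested, and 20 were higher and 5 lower in CCs. The 3 largest changes were in Bpgm, an enzyme of the 2,3-bisphosphoglycerate shunt, at -6.85 ± 0.61, the transcription factor gene Myc at 5.99 ± 0.89 and the phosphoglucomutase Pgm2 at 5.46 ± 0.70 on the log2 scale. The cumulus marker genes summed to 1234 to 1922 TPM in CCs and to at most 66.2 TPM in any SCNT library. Without CC replicate 1 or replicate 2 the calls of Slc2a1 and Eno3 were lost.

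**Figure D1:**
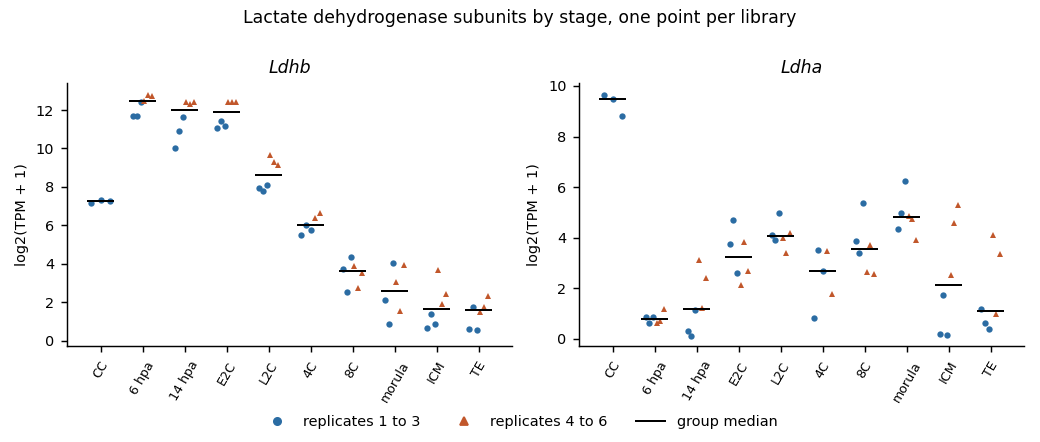
Levels of Ldhb (left) and Ldha (right) as log2(TPM + 1) in each library of CCs and of the SCNT groups in developmental order, with circles for replicates 1 to 3, triangles for replicates 4 to 6 and a line at the group median. Ldhb passed from a median of 5572 TPM at 6 hpa to 11.4 TPM at 8C, while Ldha was highest in CCs.

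From 6 hpa to E2C, few of the genes changed. Of the 42 tested, 6 rose and 1 fell, against 11.3% of 11867 genes that rose and 8.82% that fell, 20.1% together. Pfkm, Aldoc, Pdk4 and Pcx were not tested in the SCNT fit. The median change was 0.39 against 0.17 over all genes on the log2 scale. Mdh2, the mitochondrial malate dehydrogenase, rose by 2.88 ± 0.31 from 5.24 to 18.2 TPM at 6 hpa to 30.7 to 118 TPM at E2C. Its cytosolic counterpart Mdh1 was the gene that fell, by 1.43 on the log2 scale, from a median of 165 TPM to 59.0 TPM. Tpi1 (triose phosphate isomerase), Ldha, Aldoa, Gpi1 and Pgam1 were the others that rose, by 2.72, 2.48, 2.27, 1.20 and 1.20 on the log2 scale. Ldha reached only 3.35 to 25.0 TPM at E2C, beside 2174 to 5497 TPM of Ldhb. Of the other genes of the pathways, 2 of 39 fell (Taldo1 and Hif1a).

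Between E2C and L2C the genes moved in both directions. Of the 42 tested, 9 rose and 8 fell, against 23.7% and 11.2% of all genes, 34.9% together, and the median change of 0.36 was close to the 0.26 of all genes. The split depended on the scaling, with 12 and 6 when TPM was rescaled over the reference genes, which moved the median of all genes to 0.54, and 7 and 11 with quantile normalization, which moved it to -0.02. The genes that rose included both catalytic subunits of pyruvate dehydrogenase E1, Pdha1 and Pdhb, the mitochondrial carrier subunit Mpc2, Idh2 and the Idh3b and Idh3g subunits of the NAD-dependent isocitrate dehydrogenase. Mpc2 was at 15.1 to 58.7 TPM at E2C, with a median of 35.2, and at 245 to 346 TPM at L2C, with a median of 265, a rise of 3.08 ± 0.42 on the log2 scale (limma adjusted p = 4.8e-08). The ranges did not overlap. Ldhb fell from 2174 to 5497 TPM to 224 to 802 TPM, by 3.17 on the log2 scale. Also lower at L2C were Dlat and Dld, the E2 and E3 subunits of pyruvate dehydrogenase, the phosphatase Pdp1, Cs, the succinyl-CoA ligase subunits Suclg1 and Suclg2, and Mdh1. So within the pyruvate dehydrogenase complex the E1 subunits rose while E2 and E3 fell. Replicates 1 to 3 alone gave 4 that rose and 6 that fell, and replicates 4 to 6 alone gave 14 and 4. All 17 genes had the same direction in both sets, but they were called on both sets together, so this is no independent check. Of the other pathway genes, 11 of 39 rose and 6 fell, led by Ldhc, the testis-type lactate dehydrogenase subunit, at 2.69, G6pdx, which opens the pentose phosphate pathway, at -2.66, and Mycn at 2.55 on the log2 scale.

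**Figure D2:**
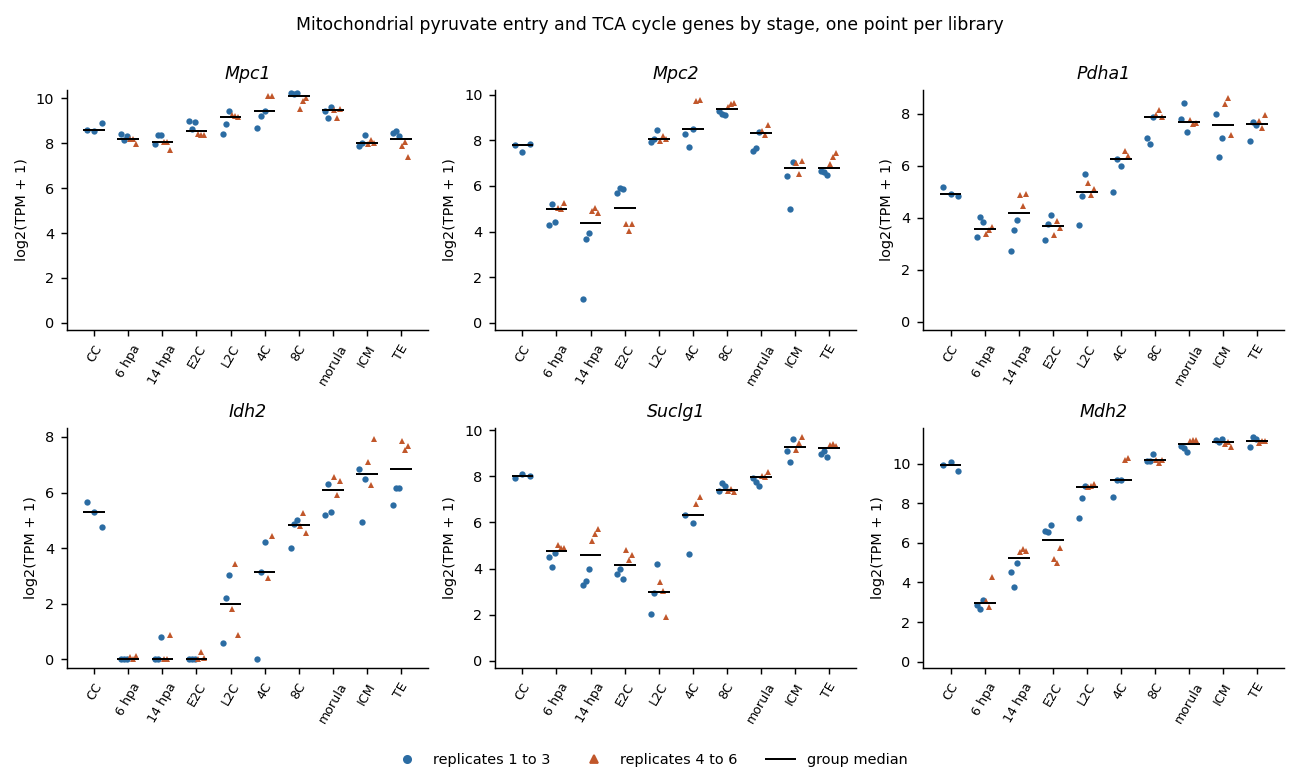
Levels of Mpc1, Mpc2, Pdha1, Idh2, Suclg1 and Mdh2 as log2(TPM + 1) in each library by stage, with circles for replicates 1 to 3, triangles for 4 to 6 and a line at the group median. Mpc1 and Mpc2 were highest at 8C, with medians of 1101 and 668 TPM, whereas Mdh2 and Suclg1 were higher in blastocysts than at 8C.

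From L2C to 8C, 16 of the 42 genes rose and 9 fell, against 23.2% and 32.8% of all genes, 56% together. The median change of the genes was 0.40 against -0.23 over all genes. The rescaled TPM gave 13 and 12 and moved the median of all genes to -0.80, while quantile normalization gave 18 and 7, moved it to 0.11 and cost the calls of Mpc2, Mdh2, Pfkp and Gapdh. Many of the rises were in genes of mitochondrial enzymes and carriers, which also make up much of the list. Suclg1 went from 2.75 to 17.2 TPM to 161 to 206 TPM, by 4.55 ± 0.35 on the log2 scale, and Idh3b, Idh2, Idh3g, Pdha1, Pdhb, Sucla2, Mdh2, Mpc2 and Suclg2 rose by between 1.04 and 2.97. Pdha1 was at 12.1 to 50.1 TPM at L2C, with a median of 30.9, and at 114 to 280 TPM at 8C, with a median of 234. The genes of glycolysis divided. Aldoa and Pgam1 rose by 2.86 and 2.83, and Hk1 and Hk2 by 2.01 and 1.96 on the log2 scale. Slc2a3 rose from 0.346 to 5.76 TPM to 6.62 to 14.7 TPM, without overlap. Idh1 rose by 1.64, but by 0.17 within replicates 1 to 3 and by 3.11 within replicates 4 to 6. Tpi1, Gapdh, Pgk1 and Pfkp fell, Tpi1 from 34.4 to 108 TPM to 11.04 to 22.1 TPM. The lactate and pyruvate carrier gene Slc16a1 also fell, from 4.11 to 18.4 TPM to 0.688 to 5.74 TPM, by 1.99 on the log2 scale, but by 0.90 within replicates 1 to 3 and by 3.08 within replicates 4 to 6.

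The Ldhb transcript was nearly lost over the same interval. Its level fell by 5.18 on the log2 scale to 4.87 to 19.6 TPM, with a median of 11.4. At 4C, which was not tested, its 5 libraries ran from 44.4 to 99.1 TPM. Beside it, the oocyte marker genes summed to 4419 to 8415 TPM at 6 hpa, 618 to 2717 TPM at L2C and 9.07 to 21.4 TPM at 8C, and their part in the result was not tested. Ldha was at 4.97 to 40.4 TPM at 8C, so that Ldhb made up 32.4% to 72.3% of the TPM of both subunits, compared with 89.9% to 98.5% at L2C. Regulators of pyruvate dehydrogenase also changed. The inhibitory kinases Pdk3 and Pdk1 fell by 3.58 and 2.85, and the activating phosphatase Pdp1 by 2.30 on the log2 scale. A second such phosphatase, Pdp2, which is not among the 46 genes and was named after its values were seen, rose by 2.93 ± 0.48. Pdk3 was at 10.6 to 59.5 TPM at L2C and at 0.136 to 4.93 TPM at 8C, and Pdp1 at 4.06 to 5.56 TPM and then at no more than 0.766 TPM. Pdk4 was listed at no more than 0.0919 TPM in any embryo library from 6 hpa to 8C. Pyruvate carboxylase (Pcx), which makes oxaloacetate from pyruvate, was at no more than 0.615 TPM in any SCNT library and at no more than 0.0147 TPM in those of the SCNT ICM and TE. In the rest of the pathways 14 of 39 genes rose and 9 fell, led by falls of Bpgm, Ldhc and Me1, the cytosolic malic enzyme, by 4.40, 3.29 and 3.01 on the log2 scale.

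**Figure D3:**
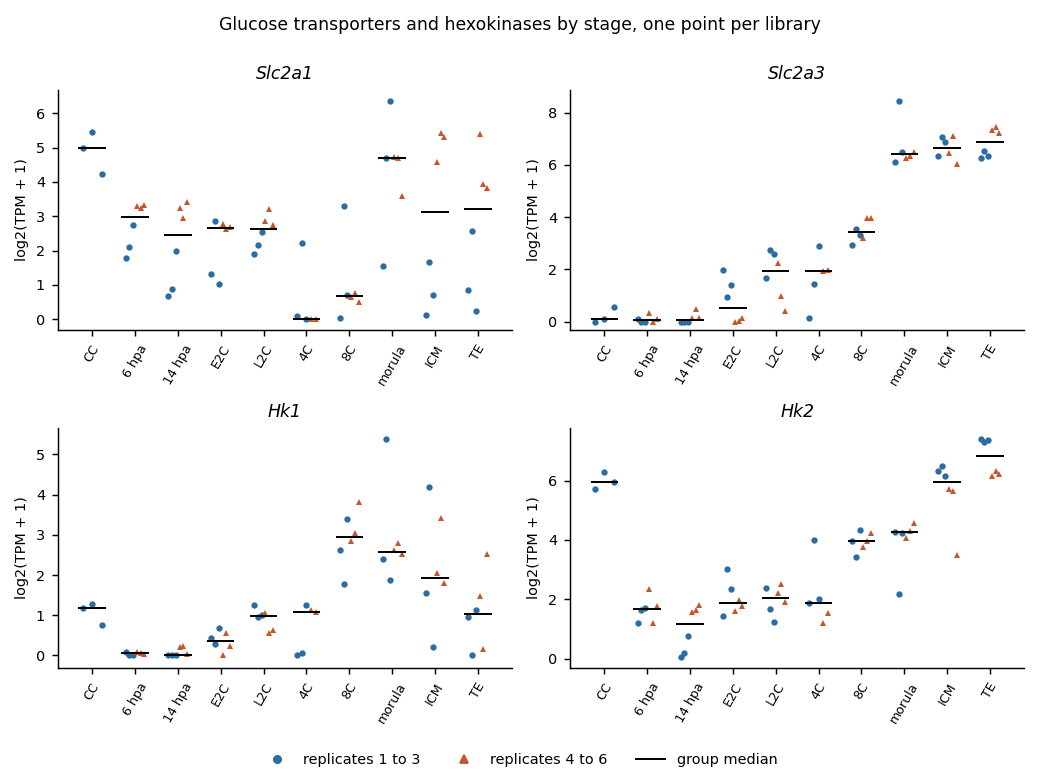
Levels of the glucose transporters Slc2a1 and Slc2a3 and of the hexokinases Hk1 and Hk2 as log2(TPM + 1) in each library by stage, with circles for replicates 1 to 3, triangles for 4 to 6 and a line at the group median. Slc2a3 passed from 6.62 to 14.7 TPM at 8C to 67.7 to 345 TPM at the morula, and in the ICM and TE Slc2a1 sat lower in replicates 1 to 3 than in replicates 4 to 6.

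Between 8C and the morula 15 of the 16 genes that passed rose, of which 10 belong to glucose uptake and glycolysis. Of the 42 genes tested, 15 rose and 1 fell, against 8.74% and 3.48% of all genes, 12.2% together, with a median change of 1.02 against 0.20. The 15 were the transporters Slc2a1 and Slc2a3, 8 enzymes from Gpi1 to Pkm, and Dld, Cs, Idh3a, Fh1 and Mdh1. Slc2a3 (GLUT3), a high-affinity glucose transporter, was at 6.62 to 14.7 TPM at 8C, with a median of 9.80, and at 67.7 to 345 TPM at the morula, with a median of 84.3. It was at no more than 0.478 TPM in CCs and 0.384 TPM at 6 and 14 hpa. The rise was 3.20 ± 0.39 on the log2 scale (limma adjusted p = 3.4e-08), and the ranges did not overlap. The second transporter, Slc2a1 (GLUT1), was at 0.0220 to 8.80 TPM at 8C, with a median of 0.604, and at 1.93 to 80.7 TPM at the morula, with a median of 24.9, so that its ranges overlapped although it passed the test with a rise of 3.27 ± 0.76.

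Among the enzymes, Pkm, the muscle-type pyruvate kinase that makes pyruvate, rose most, by 4.08 ± 0.57 on the log2 scale, from 7.92 to 25.4 TPM to 146 to 365 TPM. Gapdh rose by 3.43 ± 0.40, from a median of 12.5 TPM to 159 TPM, and Aldoa by 1.89 ± 0.40, from 314 TPM to 1234 TPM. In these 3 genes no morula library overlapped the 8C libraries. The phosphofructokinase genes Pfkl and Pfkp also rose, and Pfkp reached only 1.05 to 4.11 TPM. The hexokinases did not pass the test. Mpc2 was the gene that fell, by 1.22, from a median of 668 TPM to 316 TPM. Morula replicate 2 stood apart, with Slc2a3 at 345 TPM, Hk1 at 40.8 TPM and Hk2 at 3.54 TPM. Without it, 13 genes passed, all of them rises, and Pfkl, Cs and Mpc2 lost their calls. Replicates 1 to 3 alone gave 6 that rose, and replicates 4 to 6 alone gave 16 that rose and 1 that fell. Among the other pathway genes 7 of 39 passed, all rises, led by Slc2a8, a further glucose transporter, the citrate carrier Slc25a1 and Bsg (basigin), the chaperone of the monocarboxylate carriers.

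In blastocysts the libraries were checked against lineage markers first. ICM markers summed to 307 to 909 TPM in the SCNT ICM and to 70.2 to 345 TPM in the TE, and TE markers to 4105 to 15700 TPM in the ICM and to 12730 to 29340 TPM in the TE, so that all SCNT ICM libraries held much TE-marker RNA. Replicates 1 to 3 of the ICM reached 1 TPM in 6177 to 6771 genes and replicates 4 to 6 in 9011 to 10032.

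From the morula to the ICM, 7 of the 42 genes rose and 5 fell, against 8.96% and 15% of all genes, 24% together. From the morula to the TE, 9 rose and 7 fell, against 11% and 10.8%, 21.8% together. Replicates 1 to 3 alone gave 7 rises and 7 falls towards the ICM and 6 and 4 towards the TE, and replicates 4 to 6 alone gave 14 and 2, and 18 and 4. Over all genes the sets also differed, with 659 rises and 2646 falls against 2209 and 964 towards the ICM, and 790 and 1352 against 2161 and 1079 towards the TE. The comparisons share the morula libraries. Among the rises in both were matrix enzymes of the TCA cycle. The change of Idh3a was 2.48 ± 0.42 in the ICM and 2.86 ± 0.42 in the TE on the log2 scale, from 26.1 to 133 TPM at the morula to 179 to 457 TPM in the ICM and 351 to 405 TPM in the TE. Fh1 (fumarase), Suclg1, Suclg2 and Sucla2 passed the test in each comparison, by between 1.13 and 1.86. Hk2 was at 3.54 to 22.6 TPM at the morula, with a median of 18.1, at 10.4 to 89.3 TPM in the ICM, with a median of 61.6, and at 70.2 to 168 TPM in the TE, with a median of 119. The TE libraries did not overlap the morula libraries, and the changes were 1.71 ± 0.43 and 2.86 ± 0.43. Tpi1 was also higher in both.

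The mitochondrial pyruvate carrier changed the other way. Mpc1 was at 558 to 795 TPM at the morula, at 236 to 327 TPM in the ICM and at 169 to 370 TPM in the TE, a fall by 1.33 and by 1.29 on the log2 scale with limma adjusted p of 5.1e-07 and 9.8e-07, and Mpc2 fell by 1.64 and 1.26. Neither lineage overlapped the morula in either gene. Ldha fell by 2.44 and 3.07, from 14.1 to 75.3 TPM at the morula to 0.124 to 37.7 TPM in the ICM and 0.312 to 16.4 TPM in the TE. In the ICM that fall was 4.50 within replicates 1 to 3 and 0.38 within replicates 4 to 6. Pfkp and Pgam1 fell in both comparisons, and Hk1 and Pdk3 fell from the morula to the TE. Without morula replicate 2, 8 genes rose and 5 fell towards the ICM and 8 rose and 8 fell towards the TE, and only Gapdh, towards the TE, lost its call. The other pathway genes gave 11 of 39 that rose and 2 that fell towards the ICM, with Pgm1, Mycn and Aco1 changing most, and 5 rose and 3 fell towards the TE, with Pgm2, Mycn and Slc2a8 changing most.

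Between the SCNT ICM and TE themselves, 1 of the 42 genes passed the test, against 1.47% of all genes that were higher in the ICM and 3.87% that were lower, 5.34% together. This was Eno3, the muscle enolase, lower in the ICM by 1.98 ± 0.58 on the log2 scale (limma adjusted p = 0.030). It was listed at 0 in ICM replicates 1 to 3 and at 19.6, 4.51 and 0.0970 TPM in replicates 4 to 6, and at 8.11, 9.57, 0, 11.2, 15.1 and 23.8 TPM in TE replicates 1 to 6. Its ranges overlapped, and the call was lost in 6 of 10 alternatives. Quantile normalization gave 1 gene higher and 1 lower. Of the 42, 6 had an unadjusted p under 0.05. Hk2 had a change of -1.15 ± 0.43 (limma adjusted p = 0.11), with a change of -1.03 within replicates 1 to 3, at 71.0 to 89.3 TPM in the ICM and 158 to 168 TPM in the TE, and of -1.27 within replicates 4 to 6, at 10.4 to 52.2 TPM and 70.2 to 78.9 TPM. Mdh1 was at 54.5 to 119 TPM in the ICM and 111 to 216 TPM in the TE, and its change of -0.90 had an adjusted p of 0.035 by limma but was under 2-fold. Slc2a1 was at 0.0900 to 2.16 TPM in ICM replicates 1 to 3 and 22.8 to 41.9 TPM in replicates 4 to 6, and at 0.186 to 4.98 TPM and 13.2 to 40.7 TPM in the corresponding TE libraries, so that the sets of replicates did not overlap in either lineage. Another 2 of 39 pathway genes were higher in the ICM (Pgm1 and Pdp2) and 2 lower (Pgm2 and Rpia), of which Pgm1 was named after its values were seen. The isozymes of phosphoglucomutase, which links glycogen to glycolysis, thus differed in opposite directions, Pgm1 by 1.61 ± 0.50 and Pgm2 by -2.37 ± 0.58.

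**Figure D4:**
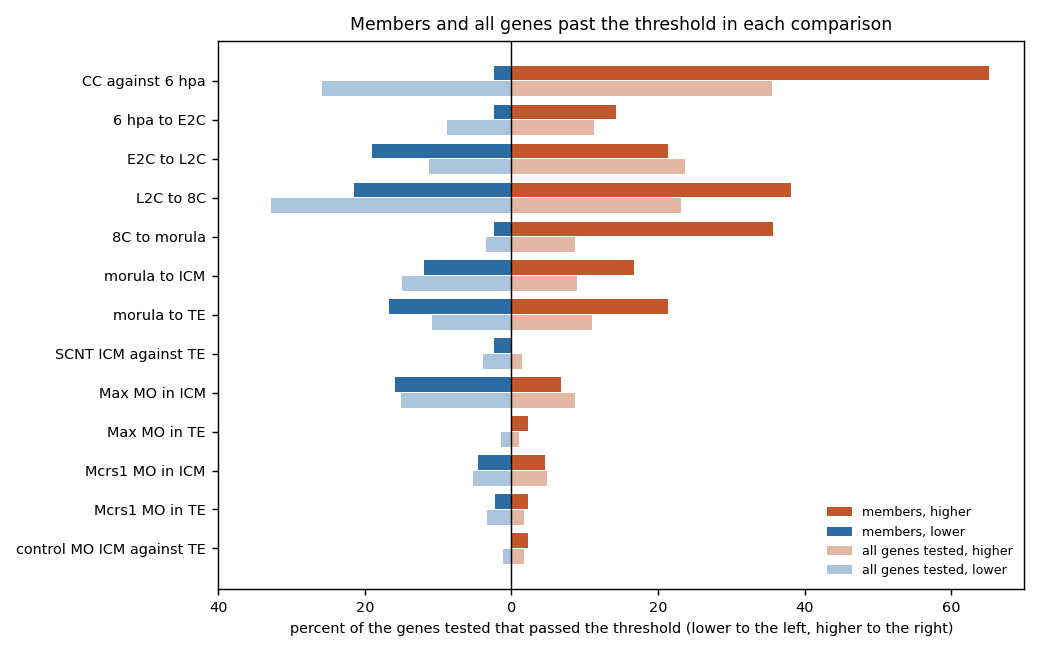
Percent of the tested members (dark bars) and of all genes tested (pale bars) that passed the threshold in each comparison, with higher or rising genes to the right of 0 and lower or falling genes to the left. The members' bars exceed those of all genes most clearly for genes higher in CCs and for genes that rose between 8C and the morula, and in the MO comparisons they lie near them.

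In the fertilized blastocysts the Max transcript was at 6.82 and 0.443 TPM in the ICM of Max MO embryos against 38 and 8.42 TPM in the control ICM, a change of -2.51 ± 0.80 (limma adjusted p = 0.040), and at 16.3 and 8.68 TPM against 34.5 and 28.5 TPM in the TE. The Mcrs1 transcript was at 86.8 and 73.4 TPM in the ICM of Mcrs1 MO embryos against 253 and 310 TPM, and at 41.1 and 45.5 TPM against 219 and 294 TPM in the TE. The Max transcript did not pass the test in the TE, and its call in the ICM held in 2 of 4 omissions of a library. An MO acts on translation or splicing, and its target's RNA need not fall. Before the results, the libraries of the control ICM have to be set apart. TE markers summed to 20790 TPM in replicate 1 and to 576 TPM in replicate 2, while the control TE libraries had 27110 and 25620 TPM, the Max MO ICM 4570 and 8807 TPM and the Mcrs1 MO ICM 17020 and 11770 TPM. ICM markers summed to 1376 and 1852 TPM in the control ICM, and were lower in the Max MO ICM, at 1106 and 1115 TPM, and in the Mcrs1 MO ICM, at 366 and 945 TPM. The part of these marker levels in the ICM results was not tested. Control libraries also differed in the sum of the reference genes. It was 85.5% to 87.0% of the loci total in the control ICM and 89.6% to 90.3% in the control TE. In the Max MO and Mcrs1 MO libraries it was 93.6% to 94.4%, and its part in the results was not tested. Several of the genes differed between the 2 control ICM libraries in the direction of the TE. Slc2a3 was at 524 TPM in replicate 1 and 114 TPM in replicate 2, Hk2 at 146 and 16.1 TPM and Tpi1 at 180 and 31.3 TPM, compared with 689 and 603, 202 and 217, and 395 and 294 TPM in the control TE. Each ICM result is therefore given also without either library, where the lone library is assumed to vary like the other groups. Comparisons of Max MO and Mcrs1 MO in a lineage share the control libraries.

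Between the control ICM and TE, 1 of the 44 genes tested passed, against 1.72% of all 11219 genes higher and 1.2% lower in the ICM, 2.92% together. Pdk4 and Pcx were not tested in the MO fit. The gene was Ldha, at 42.5 and 127 TPM in the ICM and 1.72 and 3.23 TPM in the TE. The groups did not overlap, as also in uncalled genes such as Fh1 and Mdh1. Ldha was higher in the ICM by 4.46 ± 0.68 on the log2 scale (limma adjusted p = 0.015). Its call was lost without control TE replicate 1. Without control ICM replicate 1, 4 genes were higher in the ICM and 10 lower, beside 931 and 1352 of all 11146 genes tested, and without replicate 2 again 1 gene passed, beside 114 and 156 of 11092. Among the 10 were Slc2a3 at -2.48 and Hk2 at -3.62 on the log2 scale, whose changes were -1.39 ± 0.51 (limma adjusted p = 0.14) and -2.06 ± 0.70 (adjusted p = 0.12) with both libraries. In the SCNT blastocysts the change of Ldha between ICM and TE was 0.63 ± 0.66 (limma adjusted p = 0.73), from which the fertilized value was not tested for a difference, since the experiments were separate.

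After Max MO injection, 3 of the 44 genes were higher in the ICM and 7 lower, against 8.65% and 15.1% of all genes, 23.7% together, so that their share was near that of all genes. The median change was 0.14 against -0.21 over all genes. Among the genes that passed, the largest falls were those of Slc2a3 and Hk1. The other glucose transporter, Slc2a1, did not pass, at 20.2 and 51.7 TPM against 44.1 and 76.4 TPM in the control ICM. In the Max MO ICM, Slc2a3 had 38.05 and 35.5 TPM against 524 and 114 TPM in the control ICM, a change of -2.71 ± 0.51 on the log2 scale (limma adjusted p = 0.0042). It was lower in both Max MO libraries than in either control library, and the change was -1.61 without control replicate 1 and -3.80 without replicate 2, past the threshold in each case. Hk1, the hexokinase of most tissues, was at 0.810 and 6.27 TPM against 17.5 and 29.3 TPM, a change of -2.71 ± 0.81, and lost its call without control replicate 2 or Max MO replicate 1. Slc16a1 (MCT1), the carrier of lactate and pyruvate, was at 9.71 and 20.9 TPM against 46.6 and 65.4 TPM, a change of -1.88 ± 0.44. Hk2 had 18.1 and 17.6 TPM, and its change of -1.41 ± 0.70 (limma adjusted p = 0.16) became 0.14 without control replicate 1.

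Lower in the Max MO ICM were also 2 of the 4 pyruvate dehydrogenase subunits, Ogdh and Pfkm. Pdha1 had 227 and 192 TPM against 455 and 435 TPM in the control ICM, a change of -1.09 ± 0.18 with a limma adjusted p of 0.0023. Dlat was at 54.4 and 53.9 TPM against 155 and 112 TPM, a change of -1.27 ± 0.29, and kept its call without any 1 library. Ogdh, the first subunit of oxoglutarate dehydrogenase, was at 11.8 and 10.0 TPM against 48.3 and 36.7 TPM, a change of -1.86 ± 0.43. Pfkm, the muscle phosphofructokinase, was at 1.00 and 0.250 TPM against 6.13 and 5.22 TPM. In none of these 4 genes did the groups overlap, but neither did they in genes that were not called, such as Gapdh, Cs and Mdh2. The share without overlap over all genes was not counted. Higher in the Max MO ICM were Mpc2, at 98.1 and 70.7 TPM against 34.0 and 38.8 TPM, with a change of 1.18 ± 0.26, the inhibitory kinase Pdk2 at 62.0 and 16.7 TPM against 0 and 11.01 TPM, and Tpi1 at 287 and 428 TPM against 180 and 31.3 TPM. The calls of Pdk2 and Pfkm were lost without control replicate 1, and that of Tpi1 without control replicate 2. Leaving out Max MO replicate 1 cost the calls of Hk1, Mpc2, Pdk2, Pfkm, Slc16a1 and Tpi1, and leaving out replicate 2 those of Ogdh, Pdha1, Pfkm and Tpi1. Without control replicate 1, 7 genes were higher and 6 lower, beside 1416 and 1956 of all genes. The 10 calls rest on a spread shared over all 6 MO groups, since a fit of the Max MO and control ICM libraries alone called 0 of 42 genes tested, and 1 of all genes. The other pathway genes gave 5 of 42 higher and 6 lower, led by Pdp2, a pyruvate dehydrogenase phosphatase, with the muscle phosphoglycerate mutase Pgam2 at 2.64 on the log2 scale.

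MAX with MYC recognises the E-box CACGTG, which reads the same on both strands. In the RefSeq table of promoters (GRCm38.p6, the assembly named mm10 by the files), each window holds 250 bases before and 50 after a start site. Of the 46 genes 43 had a window, and Slc2a3, Pdp1 and Idh3a had none. The motif was in windows of 6 of the 43 genes, 14.0%, against 8.09% of the 27025 genes of the table and 7.15% of its 32851 windows. The 6 were Slc16a1, Pfkm, Ldha, Pdk2, Ogdh and Pcx. Of the 10 genes that passed the test in the Max MO ICM, 9 had a window and 4 held the motif, of which Slc16a1, Pfkm and Ogdh were lower and Pdk2 was higher. The share among all genes that passed was not counted, so this count cannot be read as more or less than usual. A gene with more windows can more easily hold the motif. It was in 1 of 4 windows of Pfkm, 3 of 6 of Ogdh, 1 of 2 of Pdk2 and 1 of 1 of Slc16a1. Ldha, with 2 matches, had 137 and 97.2 TPM against 42.5 and 127 TPM in the control ICM. A match describes letters only. The 250 bases before the start site are shown for 4 of the 5 genes whose window ends at the start of the gene in the files, with the motif in capitals, because they carry the contrast between genes with the motif that were lower, higher and not called. Pcx is left out, since it was too low to be tested. They lie at chr3:104638414-104638663 on the plus strand for Slc16a1, chr15:98092339-98092588 on the plus strand for Pfkm, chr11:95041372-95041621 on the minus strand for Pdk2 and chr7:46845554-46845803 on the plus strand for Ldha.
Slc16a1: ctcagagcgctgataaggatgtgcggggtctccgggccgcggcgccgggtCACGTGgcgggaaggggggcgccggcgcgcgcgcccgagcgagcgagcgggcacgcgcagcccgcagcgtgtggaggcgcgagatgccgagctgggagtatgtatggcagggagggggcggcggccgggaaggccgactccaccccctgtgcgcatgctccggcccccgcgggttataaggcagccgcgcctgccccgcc
Pfkm: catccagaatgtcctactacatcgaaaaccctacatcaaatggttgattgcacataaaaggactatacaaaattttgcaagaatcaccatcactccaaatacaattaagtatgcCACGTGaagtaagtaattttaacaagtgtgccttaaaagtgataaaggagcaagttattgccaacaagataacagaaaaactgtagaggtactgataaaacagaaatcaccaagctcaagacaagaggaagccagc
Pdk2: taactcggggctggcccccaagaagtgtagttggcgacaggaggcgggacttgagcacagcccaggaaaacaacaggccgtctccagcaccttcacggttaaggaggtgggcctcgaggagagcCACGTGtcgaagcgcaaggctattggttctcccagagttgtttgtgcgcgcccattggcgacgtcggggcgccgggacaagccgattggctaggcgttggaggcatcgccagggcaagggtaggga
Ldha: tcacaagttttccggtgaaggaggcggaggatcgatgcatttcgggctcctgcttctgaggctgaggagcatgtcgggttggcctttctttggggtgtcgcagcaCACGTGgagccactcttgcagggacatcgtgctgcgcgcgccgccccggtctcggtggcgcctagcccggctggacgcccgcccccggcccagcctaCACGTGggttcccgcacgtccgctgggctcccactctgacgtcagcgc

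In these sequences the motif began 200 bases before the start site in Slc16a1, 136 in Pfkm, 126 in Pdk2, and 145 and 48 in Ldha. Among these genes, Slc16a1 and Pfkm were lower, Pdk2 was higher and Ldha was not called in the Max MO ICM. As given above, the calls of Pfkm and Pdk2 depended on single libraries. Any part of the motif in these changes was not tested.

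**Figure D5:**
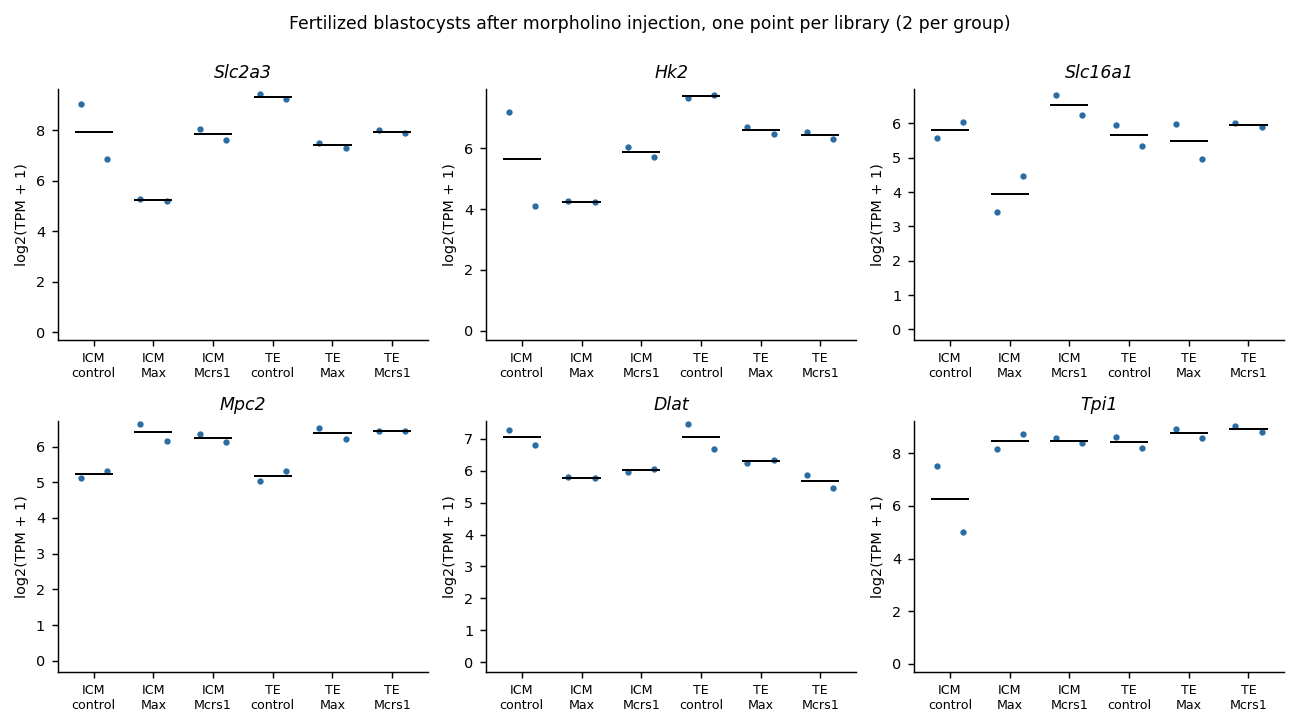
Levels of Slc2a3, Hk2, Slc16a1, Mpc2, Dlat and Tpi1 as log2(TPM + 1) in the 12 libraries of the MO experiment, with 2 libraries per group and a line at their median. Both control ICM libraries lay far apart in Slc2a3, Hk2 and Tpi1, and Mpc2 was higher in all 8 libraries of the Max MO and Mcrs1 MO groups than in the 4 control libraries. The reference genes also summed to more TPM in those 8 libraries than in the 4 controls.

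In the TE, Max MO changed 1 of the 44 genes, against 1.04% of all genes higher and 1.45% lower, 2.5% together. Mpc2 was at 90.7 and 73.4 TPM against 31.9 and 38.7 TPM in the control TE, a change of 1.19 ± 0.26 on the log2 scale (limma adjusted p = 0.040), and lost its call without any 1 of the 4 libraries, with changes of 1.04 to 1.34. Slc2a3 was at 181 and 157 TPM against 689 and 603 TPM, without overlap, as also in uncalled genes such as Gapdh and Fh1. The change of Slc2a3 was -1.93 ± 0.51, with a limma adjusted p of 0.067. Ogdh had a change of -1.65 ± 0.43 (limma adjusted p = 0.066) and Dlat of -0.78 ± 0.29 (adjusted p = 0.16). Pdha1 was at 334 and 403 TPM against 713 and 598 TPM, and its change of -0.83 ± 0.18 had an adjusted p of 0.040 by limma but was under 2-fold. Of the other pathway genes, 1 of 42 was higher (Sdhd) and 1 lower (Pdp2).

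Whether the response to Max MO differed between ICM and TE was tested by an interaction term. With limma, none of the 44 genes and none of all 11219 genes passed, with 8 and 1473 at an unadjusted p under 0.05. Mpc1 had the smallest p of the 44, with 104 and 106 TPM in the ICM after Max MO against 152 and 135 TPM in the control, and 182 and 213 TPM in the TE against 109 and 128 TPM, an interaction of -1.17 ± 0.29 (limma adjusted p = 0.18). For Slc16a1 it was -1.70 ± 0.62 (limma adjusted p = 0.30). Without control ICM replicate 1, 3 genes passed (Tpi1, Idh3b and Suclg1, all with a higher response in the ICM), beside 356 higher and 151 lower of all genes, and without replicate 2, 5 passed, beside 176 and 226.

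After Mcrs1 MO injection, 2 of the 44 genes were higher and 2 lower in the ICM, against 4.88% and 5.21% of all genes, 10.1% together, with 1 and 2 after rescaling over the reference genes. Tpi1 at 380 and 334 TPM and Mpc2 at 80.0 and 69.0 TPM were higher than the control ICM values given above, and Hk1 at 3.56 and 0.839 TPM and Dlat at 61.4 and 65.4 TPM were lower. The changes were 2.23 ± 0.58, 1.01 ± 0.26, -3.03 ± 0.81 and -1.05 ± 0.29 on the log2 scale, with limma adjusted p of 0.031 to 0.041. Slc2a3, at 268 and 198 TPM, lay between the 2 control ICM libraries. Without control ICM replicate 1, 9 genes were higher and 1 lower, beside 1333 and 1163 of all genes, and without replicate 2, 3 and 3, beside 721 and 641. Hk1 and Tpi1 lost their calls without control ICM replicate 2, Dlat and Mpc2 without control ICM replicate 1, and all 4 without either Mcrs1 MO library.

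In the Mcrs1 MO TE, 1 gene was higher and 1 lower, against 1.77% and 3.31% of all genes, 5.08% together. Mpc2 was at 85.7 and 86.0 TPM, a change of 1.26 ± 0.26 (limma adjusted p = 0.021), and Dlat at 57.0 and 43.3 TPM against 174 and 102 TPM, a change of -1.41 ± 0.29 (adjusted p = 0.022). Leaving out either control TE library, or either Mcrs1 MO TE library, cost the call of Mpc2, and Dlat kept its call only without control TE replicate 2. Slc2a3 was at 255 and 236 TPM, with a change of -1.39 ± 0.51 (limma adjusted p = 0.12). In the test of Mcrs1 MO by lineage, none of the 44 genes and none of all genes passed with limma, with 4 and 972 at an unadjusted p under 0.05, whereas 6 genes passed without control ICM replicate 1, all higher, beside 705 higher and 135 lower of all genes. In the rest of the pathways 5 of 42 genes were higher and 3 lower in the ICM, with Pdp2, Pgam2 and Ogdhl changing most, and 1 higher (Sdhd) and 2 lower (Pdp2 and Acly) in the TE.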

How the data were processed

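Reads were trimmed with Cutadapt (1.16) and aligned to mm10 with HISAT2, and StringTie quantified genes and assembled loci in each library, with versions as far as the submitters' processing notes give them. The deposited columns used were TPM, a length-corrected signal that the authors computed with StringTie, and, for depth only, FPKM and coverage as deposited by the authors. The assembled loci by themselves made up the TPM total of each library. Reference genes came beside that total, with sums that differ between libraries. Here the TPM of a gene's entries were summed per symbol, genes with a mean under 1 TPM over the libraries fitted were left out, and log2(TPM + 1) was fitted with limma (3.58.1, R 4.3.3), with a mean-variance trend and Benjamini-Hochberg adjustment over 11867 genes in the fit of the SCNT groups, 12084 with CCs added and 11219 in the MO fit. All groups of a fit share the estimate of the spread. Values are TPM per library, and ± gives the SE of a fitted difference on the log2(TPM + 1) scale. The procedure was tested on simulated data. Tables were read with Python (3.11.15), pandas (2.3.3) and numpy (2.4.6) and drawn with matplotlib (3.10.9). Windows before start sites came from RefSeq (GRCm38.p6), and shared stretches from GENCODE transcripts.

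The 46 genes, the pathway and marker lists and the tests were chosen with earlier results of these data known. Named genes were members past the threshold, members at entry, branch and isoform points, Max and Mcrs1, and at most 3 further pathway genes per comparison. Same-numbered SCNT ICM and TE libraries deviated together, with correlations of 0.131 to 0.300 over 6 pairs, 2 of them highest for the same number. The labels do not pair them, and the reported test used group means without a pairing. Pairing by number entered only as the replicate block. Libraries at 14 hpa and 4C are given as levels only. One 4C library carries different replicate numbers in its label and table name. Alternatives covered the pseudocount, the filter on low values, scaling, assembled loci, the replicate block, the groups fitted and single libraries. The omission of morula replicate 2 was chosen after seeing the data. Some results for further pathway genes are not reported here.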

Additional observations from a re-analysis of the deposited data

Results flagged for a closer look

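In 14 of 190 combinations of gene and group looked at, the highest or lowest of the libraries lay farther from the others than Dixon's 95% limit allows, where chance alone flags about 1 in 20 groups. Of these, 3 were in morula replicate 2, where Slc2a3 was at 344.9 TPM (67.7 to 89.9 TPM in the other libraries), Hk1 at 40.78 TPM (2.66 to 5.95 TPM) and Hk2 at 3.542 TPM (15.9 to 22.6 TPM). Pdk3 in morula replicate 3 was at 17.31 TPM (at most 3.14 TPM).

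In the SCNT ICM, replicate 6 held Hk2 at 10.37 TPM (48.7 to 89.3 TPM in the others) and Pdk2 at 18.21 TPM (at most 0.113 TPM). Replicate 1 held Slc16a1 at 0.5076 TPM (12.9 to 30.0 TPM), replicate 2 held Mpc2 at 30.64 TPM (84.7 to 134 TPM), replicate 3 held Pgk1 at 0.2892 TPM (12.8 to 42.5 TPM) and replicate 5 held Pfkp at 6.006 TPM (at most 0.163 TPM). Pgk1 shares 67.0% of its 100-base stretches with another gene.

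At earlier stages, Pgk1 was at 6.777 TPM in replicate 1 at 6 hpa (18.3 to 28.2 TPM), Mpc2 at 1.041 TPM in replicate 1 at 14 hpa (11.8 to 31.4 TPM), Hk2 at 15 TPM in replicate 2 at 4C (1.32 to 2.99 TPM) and Slc2a1 at 8.798 TPM in replicate 2 at 8C (0.0220 to 0.706 TPM). The causes were not tested.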

How the results depend on the processing

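Of the recomputed counts of members that passed, 157 stayed within 1.5 times the reported count and 34 did not. This compares totals only, not which genes passed or their direction. With assembled loci added, the count for Max MO in the TE stayed at 1, but the gene that passed was lower rather than higher. Of the recomputed changes of single genes, 1630 kept direction and side of the threshold, 178 kept direction but missed it, 9 newly passed and 2 turned. The latter were Ldha between SCNT ICM and TE with replicates 1 to 3 alone, at -0.041, and Hk2 after Max MO in the ICM, which ran from -2.97 to 0.14 with 1 library left out. Replicates 1 to 3 alone gave 10 calls from E2C to L2C, 6 from 8C to morula and 10 from morula to TE. The single call between SCNT ICM and TE became 0 with a pseudocount of 0.1, all genes above 0 TPM, a mean of at least 5 TPM, assembled loci added, or only these groups fitted, and 2 with quantile normalization. After Max MO in the ICM the 10 calls became 6 with all genes above 0 TPM and 0 with only the compared groups fitted, and after Mcrs1 MO in the ICM the 4 became 1, 0 and, with quantile normalization, 2. Fits of only the compared groups gave 4 calls after Max MO and 5 after Mcrs1 MO in the TE, and 0 between control ICM and TE.

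With 1 library left out, the calls ran from 4 to 13 (Max MO ICM), 0 to 0 (Max MO TE), 0 to 10 (Mcrs1 MO ICM), 0 to 1 (Mcrs1 MO TE), 0 to 14 (control ICM against TE), 0 to 5 and 0 to 6 (Max and Mcrs1 MO by lineage) and 27 to 30 (CC). Where these moved, the cause was not tested.

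By their labels, same-numbered libraries share only a number, also in the SCNT ICM and TE. With the replicate block, the count between SCNT ICM and TE stayed at 1, and the other counts moved by no more than 3 genes, to 32 for CCs, 8, 18, 26, 17, 12 and 18 along the stages, and not at all in the MO comparisons. Without read counts, precision per gene is unknown, and 2 libraries per MO group limit what the test can call.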
